A study of Homo sapiens with 27 samples.

Results

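The 10 genes described here encode the core subunits of the Scribble, Par and Crumbs complexes of epithelial cells. They were chosen by symbol from the 26485 genes of the count table: SCRIB, LLGL1, LLGL2 and DLG1 of the Scribble complex, PARD3, PARD6A, PARD6B, PRKCI and PRKCZ of the Par complex, and CRB3 of the Crumbs complex. All 10 had counts in every library and passed the filter on low counts, as 10 of the 14789 genes tested. RNA was sequenced from T47D, a luminal breast cancer cell line in long use, after the cells had been infected with a lentiviral vector and selected with puromycin. The control cells carried the empty vector, and the other lines carried a Ty1-tagged truncation mutant of the transcription factor GATA3: the splice site deletion (Splice del), the C321 frameshift (C321fs) or the A333 frameshift (A333fs), each of which changes the sequence of the second zinc finger. The mutants were added to cells that still expressed wild-type GATA3, each mutant line was 1 selected pool, and each of the 4 lines gave 3 libraries. The study calls them biological replicates, but nothing in the labels says that they came from separate cultures, so the p-values measure the spread between libraries of 1 pool, which may be technical, and differences between pools cannot be told apart from those between mutants. The labels and the methods of the study name different growth media, and the medium is therefore not settled.

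Epithelial cells keep an apical side and a basolateral side that differ in their proteins and lipids. The Par complex, in which the scaffolds PARD3 and PARD6 bind an atypical protein kinase C, and the Crumbs complex mark the apical side and the tight junctions, and the Scribble complex marks the basolateral side. The kinase phosphorylates the LLGL proteins and keeps them off the apical membrane, while the LLGL proteins hold the kinase in check on the other side. Several of the slots can be filled by paralogs, such as LLGL1 or LLGL2, PARD6A or PARD6B, and PRKCI or PRKCZ. The repressors of the SNAI and ZEB families, which drive the epithelial to mesenchymal transition (EMT), are known to act on genes of these complexes.

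Libraries held 27872208 to 36788024 counted fragments, and the lowest count of a member in a library was 685. A trend over GC content, the share of G and C in the exons of a gene, touched every comparison with control and, less strongly, those of A333fs with the other mutant lines. The slope of log2 CPM (counts of a gene per 1000000 counts of its library, scaled by the trimmed mean of M values, TMM) over 10 percentage points of GC ran from 0.15 to 0.23 among control libraries and from -0.17 to 0.06 among those of the mutants, with no overlap. The labels name no batch, so the trend and the lines cannot be told apart by design. The luminal markers were expressed in every line (9 of 9), with a summed level of 18200 to 21400 CPM in control and 12100 to 15000 CPM in the mutant lines. The keratins KRT8, KRT18 and KRT19 made up most of that sum (7520, 2610 and 5560 CPM on average in control), and EPCAM, a luminal surface marker, went the other way, at 208 CPM in control, 278 CPM with Splice del and 268 CPM with each frameshift. ESR1 and CDH1 (221 and 489 CPM in control) averaged higher with Splice del (259 and 568 CPM) and A333fs (239 and 592 CPM). With C321fs they did not (219 and 465 CPM). PGR, GATA3 and FOXA1 averaged lower than control in each mutant line. The 5 markers of basal or myoepithelial cells summed to 16.9 to 18.8 CPM in control and 26.1 to 28.9 CPM in A333fs libraries, with 17.1 to 22.3 CPM in the other lines. The 5 markers of fibroblasts summed to 53.4 to 65.0 CPM in control, 41.2 to 52.0 CPM in Splice del and C321fs and 33.6 to 39.0 CPM in A333fs libraries, and COL1A1 (53.4 CPM on average in control against 30.1 CPM in A333fs) carried most of that sum. The low fibroblast marker LUM did not follow its sum: it rose from 0.158 CPM in control to 1.82 CPM in Splice del and 4.71 CPM in A333fs cells. The low basal keratin KRT14 rose with its sum, from 0.0113 to 0.569 CPM in A333fs cells. LUM and KRT14 were very low in control and passed the filter on low counts through lines where they were high. No test of their rises is therefore given. The markers of leukocytes summed to at most 4.78 CPM and those of endothelial cells 0.0957 CPM. Among the listed markers, KRT5, COL1A2, PDGFRB, PTPRC, CD3E, PECAM1, VWF and CDH5 were at or near 0 in every line. Others were not: ACTA2 averaged 13.2 CPM in control and 20.2 CPM in A333fs cells, and COL3A1 5.13 and 1.63 CPM. MYLK (4.57 CPM) and CD68 (3.67 CPM) were also present in control, and TP63 reached 0.769 CPM in C321fs cells. The part of these marker levels in the results was not tested.

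The members fell at both ends of the GC scale. The exons of SCRIB held 66.5% GC, PARD6A 64.4%, LLGL2 63.6%, CRB3 62.6%, LLGL1 61.3% and PRKCZ 60.7%, while PARD3 held 49.9%, DLG1 40.4%, PARD6B 40% and PRKCI 38.7%. The median of all tested genes was 49.6%, and SCRIB lay at the percentile 97.5 of them. Both PARD6 paralogs show how far members that fill the same slot can differ. A stretch of 120 coding bases of exon 2 is shown for each, from position 67661455 to 67661574 of chromosome 16 for PARD6A and from 50737857 to 50737976 of chromosome 20 for PARD6B, both on the plus strand of hg38, with G and C in capitals.

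PARD6A: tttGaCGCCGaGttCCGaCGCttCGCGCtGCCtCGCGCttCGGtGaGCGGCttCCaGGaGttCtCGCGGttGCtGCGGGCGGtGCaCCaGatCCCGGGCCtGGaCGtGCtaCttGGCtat
PARD6B: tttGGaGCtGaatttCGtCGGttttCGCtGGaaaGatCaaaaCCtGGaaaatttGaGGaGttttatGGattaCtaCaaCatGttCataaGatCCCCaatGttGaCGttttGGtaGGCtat

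The stretches begin the second coding exon and align without gaps. They matched at 65 of 120 bases (54.2%), and PARD6A held 65.8% GC against 38.3% in PARD6B. At 37 of the 55 differing positions PARD6A had G or C where PARD6B had A or T, and at 4 the reverse was seen.

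To find out how strongly each member is expressed, levels were compared per length of exon, as RPKM (CPM divided by exon length in kilobases), in control cells. SCRIB, the scaffold that gives its complex its name, had the highest level with 100 ± 7.57 RPKM (SD, n = 3), followed by LLGL2 with 67.8 ± 4.38 RPKM. DLG1 (34.0 ± 1.41 RPKM), PARD6A (31.4 ± 2.45 RPKM) and CRB3 (30.7 ± 3.45 RPKM) came next, and the libraries of neighbours in this order overlapped. PRKCI lay at 23.0 ± 1.42 RPKM, PARD6B at 14 ± 1.08 RPKM, LLGL1 at 11.3 ± 0.579 RPKM, PRKCZ at 10.2 ± 0.194 RPKM and PARD3 at 7.18 ± 0.292 RPKM, each apart from its neighbours in all control libraries. The order of the means was another in the mutant lines. With Splice del, C321fs and A333fs, PRKCI averaged 27.0, 28.3 and 29.0 RPKM. It lay above PARD6A (21.9, 22.7 and 22.8 RPKM) and CRB3 (25.1, 26.7 and 23.0 RPKM) there, and PRKCZ lay above LLGL1. The deposited length of SCRIB counts its exons on chromosome 8 and again on an alternate contig (10436 bases), and the 5218 bases of chromosome 8 were used for its RPKM.

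**Figure D1:**
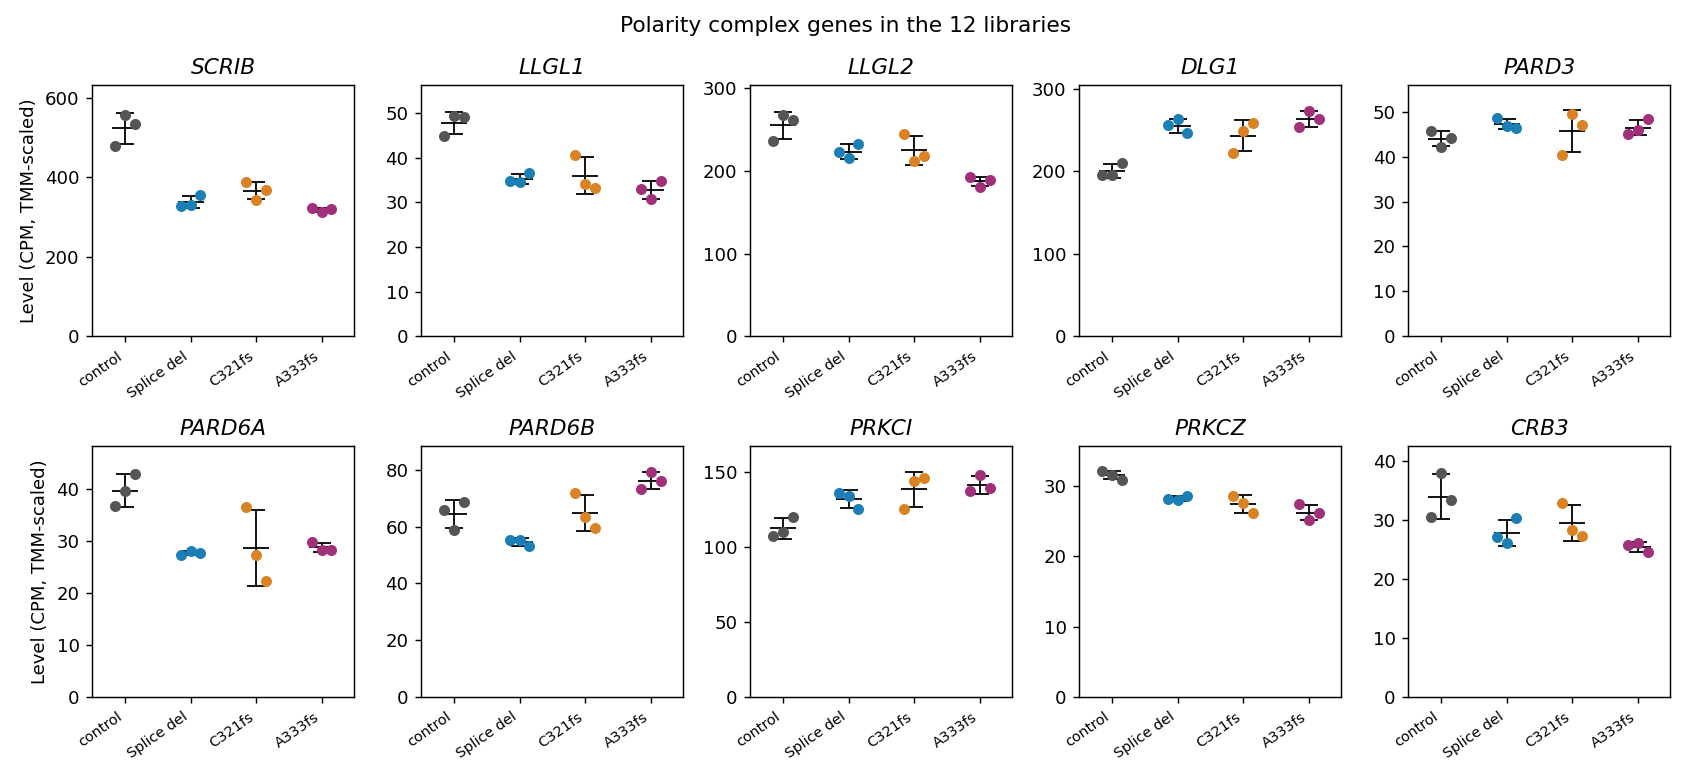
Levels of the 10 polarity genes in the 12 libraries, in counts per 1000000 (CPM) scaled by TMM, with 1 point per library, a bar for the mean and whiskers of 1 SD (n = 3). SCRIB lies between 479 and 556 CPM in control and between 312 and 387 CPM in the mutant lines, and the PARD3 libraries of C321fs and A333fs overlap those of control.

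SCRIB was the only member that passed both limits of a call, an adjusted p below 0.01 from edgeR's quasi-likelihood test and a fold change over 1.5, in a comparison with control. Its gene lies on the minus strand of chromosome 8 from 143790920 to 143815379 (hg38), in 37 exon blocks. The 3 control libraries held 479, 556 and 533 CPM, Splice del 327, 330 and 355 CPM, C321fs 387, 343 and 369 CPM, and A333fs between 312 and 322 CPM. Every mutant library thus lay below every control library. In bulk RNA, fewer cells that express a gene and less of its RNA per cell cannot be told apart. SCRIB fell by 0.63 on the log2 scale in Splice del cells (SE 0.06, adjusted p = 1.19e-06, edgeR) and by 0.72 in A333fs cells (SE 0.06, adjusted p = 2.85e-07, edgeR). In C321fs cells the log2 fold change of -0.51 (SE 0.06, adjusted p = 1.48e-05, edgeR) corresponds to a fold of 1.426, short of the limit of 1.5. Lower calls thus numbered 1 of 10 members for Splice del, 0 of 10 for C321fs and 1 of 10 for A333fs, beside 4.53%, 2.26% and 6.81% of all tested genes, and the count of higher calls was 0 in each line, beside 6.21%, 4.63% and 5.46%.

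The call of SCRIB did not outlast the removal of the trend over GC content and exon length of each library. Its log2 fold changes were then -0.38 in Splice del (SE 0.03, adjusted p = 3.34e-08, edgeR), -0.21 in C321fs (SE 0.03, adjusted p = 5.63e-05, edgeR) and -0.17 in A333fs cells (SE 0.03, adjusted p = 0.000562, edgeR). SCRIB thus lay lower than in control at an adjusted p below 0.01 in all 3 lines, at a fold below 1.5. The order of the lines also changed: A333fs had the lowest level as counted, and Splice del with the trend removed. Between these lines the difference was -0.08 as counted (adjusted p = 0.358, edgeR) and 0.21 with the trend removed (adjusted p = 0.000157, edgeR). Scaling to the upper quartile in place of TMM gave a fold of 1.455 in Splice del cells, which also ends that call, and 1.519 in A333fs cells, and edgeR's test against a fold of 1.5 itself called SCRIB in neither line.

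LLGL1 and LLGL2 encode the human homologs of the fly lethal giant larvae protein, the partner of SCRIB that the atypical kinase phosphorylates. Both lie on the plus strand of chromosome 17, LLGL1 from 18225622 to 18244874 and LLGL2 from 75525702 to 75575209. LLGL1 held 44.9, 49.3 and 49.0 CPM in control, 34.7, 34.5 and 36.6 CPM in Splice del, 40.7, 34.0 and 33.3 CPM in C321fs, and 32.9, 30.7 and 34.8 CPM in A333fs libraries. It lay below control in every mutant library. Relative to control, LLGL1 differed by -0.44 in Splice del (adjusted p = 0.000198, edgeR), -0.41 in C321fs (0.000511) and -0.54 in A333fs cells (2.45e-05) on the log2 scale, with an SE of 0.08, all at a fold below 1.5. Removing the trend left -0.21 (adjusted p = 0.00302, edgeR), -0.16 (0.0252) and -0.11 (0.110). LLGL2 held 236, 267 and 262 CPM in control, 223, 215 and 232 CPM in Splice del, 245, 212 and 218 CPM in C321fs, and 192, 181 and 189 CPM in A333fs libraries. The A333fs libraries were the lowest, and C321fs overlapped control. The log2 fold change of LLGL2 was -0.44 in A333fs cells (SE 0.06, adjusted p = 2.38e-05, edgeR), against -0.19 (0.0169) in Splice del and -0.18 (0.0257) in C321fs cells. Once the trend was removed, LLGL2 differed from control by 0.03 to 0.07 with an adjusted p of 0.0984 or more, and the sign was reversed in each line. With a least-squares trend the sign turned in C321fs (0.0167) alone.

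DLG1, the discs large homolog of the same complex, lay higher in the mutant lines as counted, unlike its partners. Its gene spans 197042560 to 197299272 on the minus strand of chromosome 3. It held 195, 196 and 210 CPM in control, 256, 263 and 246 CPM in Splice del, 222, 249 and 259 CPM in C321fs, and 254, 273 and 263 CPM in A333fs libraries. Every mutant library lay above every control library. Its log2 fold changes were 0.35 for Splice del (adjusted p = 0.000169, edgeR), 0.28 for C321fs (0.00126) and 0.40 for A333fs (4.42e-05), with an SE of 0.06, at a fold below 1.5. After the trend was removed they were 0.10 (0.0246), 0.04 (0.382) and 0.13 (0.0067), so that A333fs alone passed an adjusted p of 0.01. With a GC trend alone or a least-squares trend, DLG1 passed it in no line. Of the exon length of DLG1, 3.52% is shared with the antisense gene DLG1-AS1, whose fragments the counting without strand cannot tell apart.

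In the Par complex, the scaffold PARD3 (chromosome 10, 34109560 to 34815325, minus strand) was, as counted, the member with the least difference between lines. Its lowest and highest levels were 42.2 and 45.7 CPM in control, 46.4 and 48.6 CPM in Splice del, 40.4 and 49.5 CPM in C321fs, and 45.1 and 48.3 CPM in A333fs libraries. Its log2 fold changes of 0.10, 0.05 and 0.08 had an SE of 0.07 and adjusted p-values of 0.224, 0.563 and 0.351 (edgeR), and with its GC content near the median, its trend terms were -0.07 or smaller in size. With the trend removed the values of PARD3 were 0.11, 0.12 and 0.13 (adjusted p of 0.0775, 0.0698 and 0.0515, edgeR). PARD3 was also the only member that missed an adjusted p of 0.01 when all 4 lines were tested at once (adjusted p = 0.540, edgeR's F-test on 3 coefficients). The 9 other members passed that test as counted, beside 56.2% of all tested genes, and 5 members passed it without control replicate 2. After removal, 2 members passed it, SCRIB (adjusted p = 2.21e-07, edgeR) and PARD6B (3.81e-05), beside 49.7% of all tested genes. With the trend fitted by least squares 4 members passed, LLGL1 and PARD6A as well. CRB3 (adjusted p = 0.687, edgeR) and not PARD3 (0.101) had the highest adjusted p of the members with the trend removed.

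PARD6A and PARD6B encode adaptors that join the atypical kinase to the small GTPase CDC42. PARD6A lies on chromosome 16 from 67660948 to 67662778 and PARD6B on chromosome 20 from 50731544 to 50753741, both on the plus strand. PARD6A held 36.6, 39.5 and 42.8 CPM in control, 27.2, 28.1 and 27.7 CPM in Splice del, 36.5, 27.2 and 22.2 CPM in C321fs, and 29.8, 28.2 and 28.3 CPM in A333fs libraries. C321fs spread widest, with its highest library just below the lowest control library. PARD6A differed from control by log2 fold changes of -0.52 (SE 0.12, adjusted p = 0.00198, edgeR), -0.47 (SE 0.12, adjusted p = 0.00488) and -0.46 (SE 0.12, adjusted p = 0.00388), at a fold below 1.5. Without C321fs replicate 1, the value for C321fs was -0.68 (adjusted p = 1.01e-05, edgeR), a call. Over all fits without 1 library it ran from -0.68 to -0.31, and it missed an adjusted p of 0.01 without control replicate 2 or 3 or C321fs replicate 2 or 3. Without the trend the values were -0.18 (adjusted p = 0.0374, edgeR), -0.23 (0.0139) and -0.01 (0.919).

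PARD6B, poor in GC like DLG1 and PRKCI, differed from them in direction between the lines. It held 65.9, 58.8 and 68.5 CPM in control, 55.4, 55.4 and 53.1 CPM in Splice del, 71.8, 63.5 and 59.4 CPM in C321fs, and 73.3, 79.1 and 75.9 CPM in A333fs libraries. The Splice del libraries lay below all others and the A333fs libraries above all others. PARD6B differed from control by -0.24 on the log2 scale in Splice del (SE 0.07, adjusted p = 0.0119, edgeR), 0.01 in C321fs (SE 0.07, adjusted p = 0.902) and 0.24 in A333fs cells (SE 0.07, adjusted p = 0.00905). The direct comparison of A333fs with Splice del gave 0.48 (SE 0.07, adjusted p = 0.000279, edgeR), a fold of 1.391. Removing the trend left it at 0.45 (adjusted p = 0.000176, edgeR). The values against control moved more, to -0.50 in Splice del (adjusted p = 1.56e-05, edgeR), -0.26 in C321fs (0.0094) and -0.06 in A333fs cells (0.555), so that PARD6B lay lower than control in Splice del and C321fs cells and the A333fs value changed sign.

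PRKCI and PRKCZ encode the atypical protein kinases C iota and zeta. PRKCI lies on chromosome 3 from 170222432 to 170305982 and PRKCZ on chromosome 1 from 2050470 to 2185395, both on the plus strand. PRKCI held 107, 110 and 120 CPM in control, 136, 134 and 125 CPM in Splice del, 125, 144 and 146 CPM in C321fs, and 137, 148 and 139 CPM in A333fs libraries. All mutant libraries lay above control. PRKCI had log2 fold changes of 0.23 (adjusted p = 0.00829, edgeR), 0.30 (0.00174) and 0.33 (0.00049), with an SE of 0.07, and of -0.06, -0.01 and 0.02 with the trend removed (adjusted p of 0.210, 0.869 and 0.674). PRKCZ held 32.1, 31.6 and 30.9 CPM in control, 28.1, 28 and 28.6 CPM in Splice del, 28.6, 27.6 and 26.1 CPM in C321fs, and 27.4, 25.2 and 26.1 CPM in A333fs libraries. The mutant libraries lay below control, the reverse of PRKCI. For PRKCZ the log2 fold changes were -0.16 (adjusted p = 0.0296, edgeR), -0.20 (0.00936) and -0.27 (0.00106), with an SE of 0.06, and turned to 0.08, 0.02 and 0.14 with the trend removed (adjusted p of 0.255, 0.755 and 0.0507). Of the exon length of PRKCZ, 19.2% overlaps FAAP20 on the other strand.

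CRB3, a short transmembrane protein that anchors the Crumbs complex at the apical membrane, lies on the plus strand of chromosome 19 from 6464249 to 6467219. It held 30.4, 38.0 and 33.4 CPM in control, 27.1, 26 and 30.3 CPM in Splice del, 32.9, 28.2 and 27.3 CPM in C321fs, and 25.7, 26 and 24.5 CPM in A333fs libraries. Splice del and A333fs lay below control, and C321fs overlapped it. Against control CRB3 gave log2 fold changes of -0.29 (SE 0.09, adjusted p = 0.0115, edgeR), -0.20 (SE 0.09, adjusted p = 0.0682) and -0.42 (SE 0.09, adjusted p = 0.00083). Without the trend they were 0.04, 0.05 and -0.01, with an adjusted p of 0.529 or more.

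At an adjusted p below 0.01 with no limit on the fold, 3 members lay lower and 2 higher in Splice del cells, 4 lower and 2 higher in C321fs cells, and 6 lower and 3 higher in A333fs cells. Among all tested genes 22.4%, 20.7% and 26.4% lay lower and 18.7%, 16.1% and 21% higher at the same limit. Not every pass of a member held in the 12 fits without 1 library. PRKCZ, lower with C321fs, missed the limit in 11 of them. PARD6B, higher with A333fs, missed it in 9, and PRKCI, higher with Splice del, in 7. Each other pass of a member against control was lost in at most 4 fits. After removal of the trend 3, 2 and 1 members lay lower, beside 21.1%, 17.1% and 15.3% of all tested genes, and 0, 0 and 1 higher, beside 16.8%, 11.7% and 13.5%. No member was called in either direction then, beside 7.07%, 4.73% and 5.56% of all tested genes. With the trend fitted by least squares, PARD6A in Splice del (adjusted p = 0.00391, edgeR) and LLGL1 (0.00428) and PARD6A (0.0032) in C321fs also lay lower. DLG1 in A333fs cells did not pass an adjusted p of 0.01 with that fit. With a GC trend alone, DLG1 in A333fs and PARD6B in C321fs cells (0.0147) did not pass it. The median log2 fold change of the members was -0.21, -0.19 and -0.34 as counted, beside 0.03, 0.02 and 0.01 for all tested genes, and -0.01, 0.01 and 0.01 with the trend removed, beside 0.01, 0.00 and 0.00. The libraries of mutant and control did not overlap for 10 of 10 members with Splice del, 6 members with C321fs and 9 members with A333fs, beside 62.9%, 54.1% and 65.5% of all tested genes. These 3 comparisons share the control libraries.

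**Figure D2:**
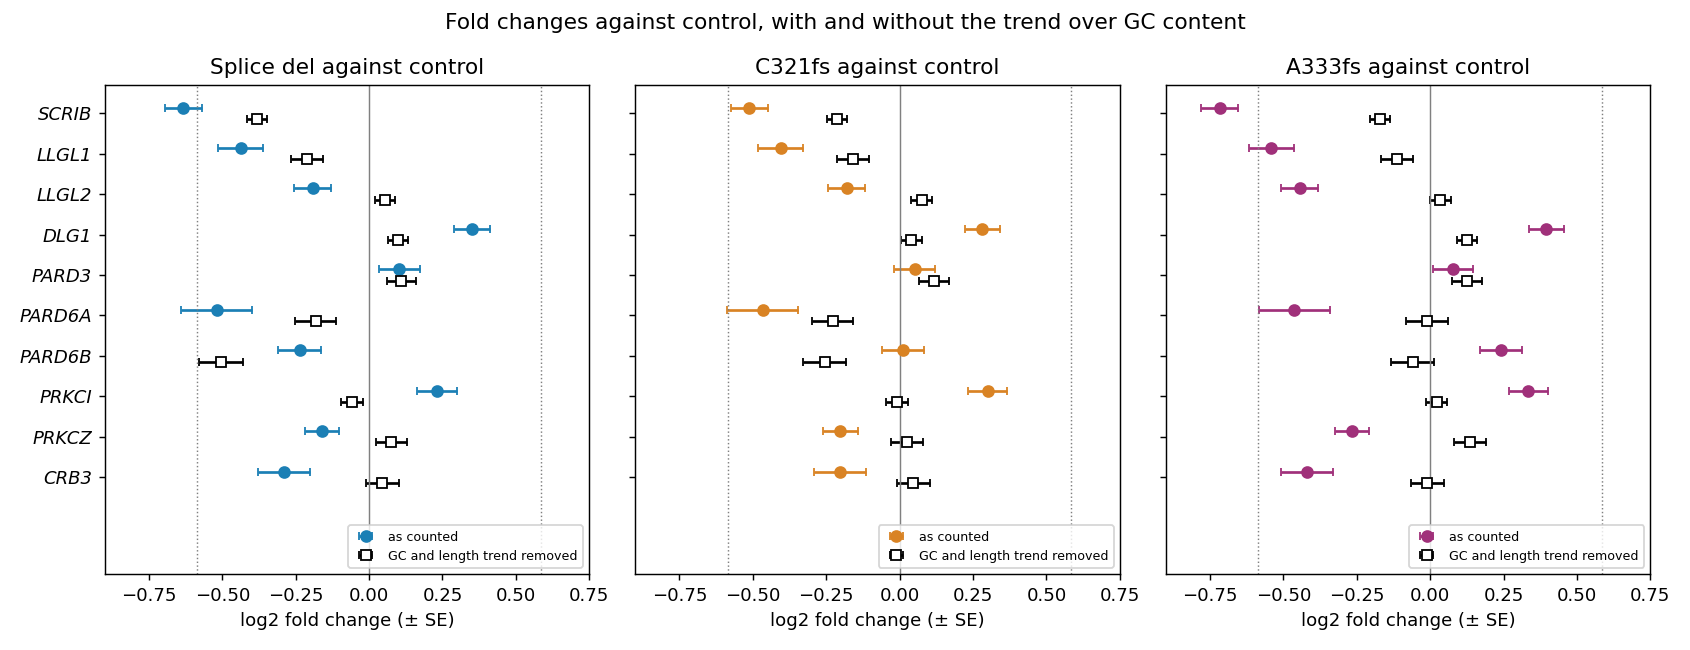
Log2 fold change of each polarity gene against control with its standard error, as counted (filled points) and with the trend over GC content and exon length of each library removed (open squares). Dotted lines mark a fold of 1.5, which SCRIB passes as counted in Splice del and A333fs cells and no member passes with the trend removed.

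As counted, most members lay in the direction that their GC content shared with other genes: all 6 above 60% GC had a negative log2 fold change in all 3 lines, and DLG1 and PRKCI, with about 40% GC or less, a positive one. PARD6B, with 40% GC, was mixed, at -0.24 with Splice del, 0.01 with C321fs and 0.24 with A333fs. Across the 10 members, which share the same libraries, the Spearman rank correlation of GC content with log2 fold change was -0.782 with Splice del, -0.879 with C321fs and -0.891 with A333fs. Across all 14789 tested genes it was -0.512, -0.547 and -0.67. Without the trend it was -0.2, -0.0545 and -0.382 across the members. The values against control farthest from 0 after removal were those of PARD6B (-0.50) and SCRIB (-0.38) in Splice del cells. Between mutant lines, the correlation as counted across all tested genes was -0.296 in A333fs against C321fs and -0.306 in A333fs against Splice del. It was -0.0302 in Splice del against C321fs. Across the members these were -0.782, -0.552 and -0.152 in that order.

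**Figure D3:**
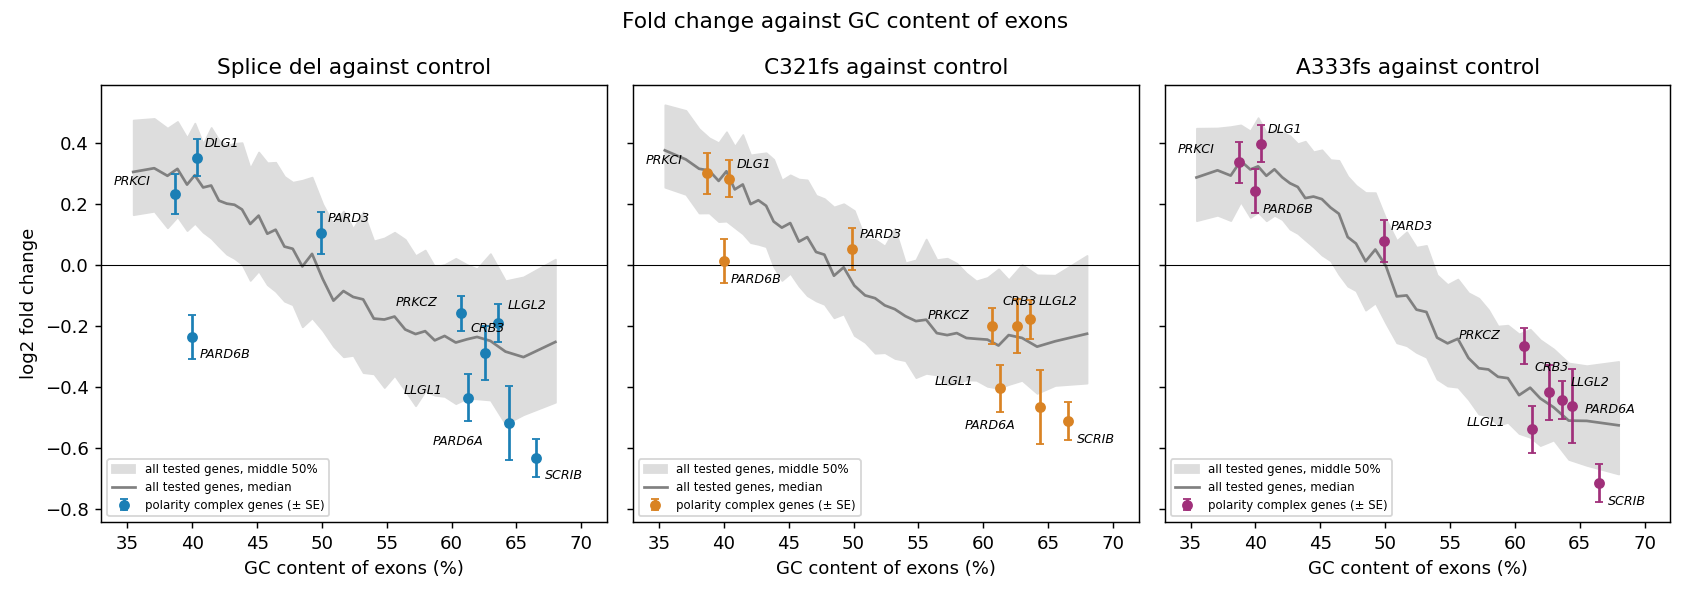
Log2 fold change against control (± SE) of the polarity genes plotted over the GC content of their exons, with the median (line) and the middle 50% (band) of all tested genes in bins of GC content. The 6 members above 60% GC lie below 0 in each panel, and PARD6B, with 40% GC, lies below the band in Splice del (-0.24) and C321fs cells (0.01).

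Between mutant lines no member passed both limits, beside 2.64%, 5.55% and 3% of all tested genes in Splice del against C321fs, A333fs against C321fs and A333fs against Splice del. At an adjusted p below 0.01 alone, 0 members were higher and 0 lower in Splice del than in C321fs (4.18% and 2.14% of all genes), 0 and 1 in A333fs than in C321fs (6.8% and 8.89%), and 1 and 1 in A333fs than in Splice del (4.63% and 7.29%). LLGL2 was lower in A333fs than in C321fs (log2 difference -0.26, SE 0.06, adjusted p = 0.00544, edgeR) and than in Splice del cells (-0.25, SE 0.06, adjusted p = 0.0092), and PARD6B higher in A333fs than in Splice del cells, as given above. The LLGL2 difference from Splice del missed an adjusted p of 0.01 in 8 of the 12 fits without 1 library, and that from C321fs in 4. The LLGL2 differences were -0.04 and -0.02 with the trend removed (adjusted p of 0.415 and 0.713). SCRIB then differed between Splice del and C321fs cells (-0.17, adjusted p = 0.00155, edgeR) and between A333fs and Splice del cells. After removal 0 members were higher and 1 lower in Splice del than in C321fs (6.8% and 5.29% of all genes), 0 and 0 in A333fs than in C321fs (12% and 9.42%), and 2 and 0 in A333fs than in Splice del (9.49% and 7.24%), none of them called (2.82%, 5.27% and 2.67%).

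To ask whether the use of paralogs shifted between lines, ratios of reads per length were formed within each library, where the scaling of the library drops out. LLGL2 exceeded LLGL1 by a log2 ratio of 2.58 ± 0.022 (SD, n = 3) in control, against 2.83 ± 0.0232 with Splice del, 2.81 ± 0.0606 with C321fs and 2.68 ± 0.0645 with A333fs, or 5.99, 7.09, 7.03 and 6.41 reads per length of LLGL2 for each of LLGL1. The ratio differed among the lines (exact permutation test on F over 15400 arrangements, one-sided, p = 0.00104, 0.00234 adjusted over the 3 pairs). Of the 3 ratios it was the one that moved least with the trend removed, and its genes are close in GC content: 2.56 ± 0.00565 in control, against 2.83 ± 0.0219 with Splice del, 2.8 ± 0.0882 with C321fs and 2.71 ± 0.0547 with A333fs (exact permutation test, adjusted p = 0.00799). Without the trend every mutant library (2.65 to 2.88) lay above every control library (2.56 to 2.57), and as counted A333fs replicate 3 (2.61) was level with the highest control library (2.61).

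For PARD6B over PARD6A the log2 ratio was -1.17 ± 0.138 (SD, n = 3) in control, against -0.888 ± 0.0423 with Splice del, -0.665 ± 0.223 with C321fs and -0.469 ± 0.0965 with A333fs, so that PARD6A had more reads per length in every line (exact permutation test, adjusted p = 0.00234). Without the trend it was -0.701 ± 0.104, -1.02 ± 0.0751, -0.726 ± 0.0956 and -0.749 ± 0.0311 (exact permutation test, adjusted p = 0.0211). Control had the lowest ratio as counted and the highest with the trend removed, where Splice del was the lowest in every library. For PRKCI over PRKCZ it was 1.16 ± 0.115 in control, against 1.55 ± 0.0842 with Splice del, 1.66 ± 0.18 with C321fs and 1.76 ± 0.116 with A333fs (exact permutation test, adjusted p = 0.00422). Without the trend it was 1.6 ± 0.0878, 1.47 ± 0.0394, 1.57 ± 0.0538 and 1.48 ± 0.0212, short of the threshold of 0.05 (exact permutation test, adjusted p = 0.0529), with control again turned from the lowest to the highest.

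**Figure D4:**
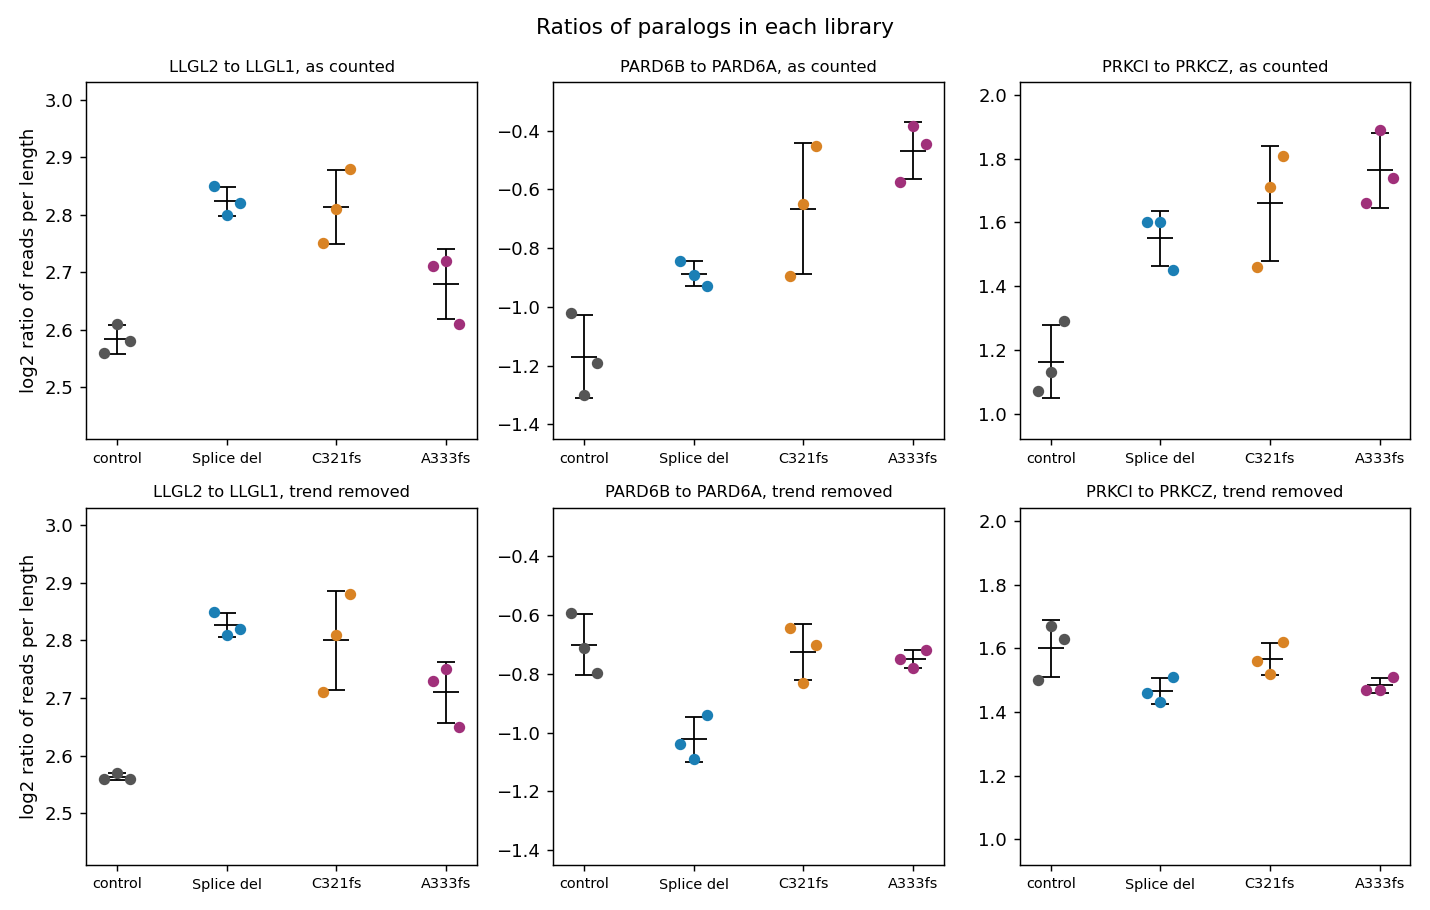
Log2 ratio of reads per length of 3 pairs of paralogs in each library, as counted (upper row) and with the trend over GC content and exon length removed (lower row), with the mean and 1 SD (n = 3). The ratio of LLGL2 to LLGL1 is lowest in control in both rows, and the other ratios are lowest in control in the upper row alone.

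Beyond the 10 members, 40 relatives and partners of the complexes were examined, of which 36 could be tested. CRB1, CRB2, LRRC7 and VANGL2 were too low. AMOT, the angiomotin that binds PATJ at tight junctions, rose from 1.45 ± 0.264 CPM (SD, n = 3) in control to 4.58 ± 0.466 CPM in Splice del (log2 fold change 1.65, SE 0.20, adjusted p = 9.02e-06, edgeR) and 3.14 ± 0.359 CPM in A333fs cells (1.11, SE 0.22, adjusted p = 0.000369), with 2.11 ± 0.696 CPM in C321fs cells. AMOT was also higher in Splice del than in C321fs cells (1.12, SE 0.19, adjusted p = 0.000829, edgeR). LIN7A, a small scaffold of the Crumbs complex, rose from 0.805 ± 0.0818 CPM to 1.5 ± 0.252 CPM in Splice del (log2 fold change 0.88, adjusted p = 0.00157, edgeR) and 1.38 ± 0.114 CPM in C321fs cells (0.78, adjusted p = 0.00524). It averaged 1.13 ± 0.159 CPM in A333fs cells. AMOTL1 fell from 8.39 ± 0.692 CPM to 4.75 ± 0.717 CPM in C321fs cells (-0.82 on the log2 scale, adjusted p = 4.32e-05, edgeR) and was higher in A333fs than in C321fs cells (0.74, adjusted p = 0.000173). It averaged 5.91 ± 0.414 CPM in Splice del and 7.93 ± 0.526 CPM in A333fs cells. These calls of AMOT, LIN7A and AMOTL1 were also made with the trend removed, and DLG5, a relative of DLG1, was then called as well in Splice del (0.61, against 0.45 as counted) and AMOTL2 between A333fs and C321fs cells (0.61, against 0.52).

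In A333fs cells MPP7, a scaffold that binds DLG1, rose from 289 ± 21.8 CPM to 446 ± 19.4 CPM (log2 fold change 0.63, adjusted p = 2.63e-06, edgeR). MARK2, the Par-1 kinase of the basolateral side, fell from 206 ± 17 CPM to 135 ± 1.11 CPM (-0.61, adjusted p = 7.34e-07, edgeR), and NUMBL, a relative of the fate determinant NUMB, from 22.4 ± 1.86 CPM to 13.8 ± 0.243 CPM (-0.70, adjusted p = 2.54e-06, edgeR). Without the trend these A333fs values were 0.31, -0.21 and -0.31, below the fold limit and with adjusted p-values of 3.76e-06, 0.000135 and 0.000928 (edgeR). The other mutant lines lay on the same side of control without a call. MPP7 averaged 429 ± 22.3 CPM in Splice del and 349 ± 28.5 CPM in C321fs cells. MARK2 averaged 158 ± 4.68 and 152 ± 5.34 CPM there, and NUMBL 15.9 ± 1.3 and 17.6 ± 0.337 CPM. In all, 2 of the 36 rose and 0 fell in Splice del, 1 rose and 1 fell in C321fs, and 2 rose and 2 fell in A333fs cells, with medians of 0.07, 0.00 and 0.02. Among all tested genes 6.21%, 4.63% and 5.46% rose and 4.53%, 2.26% and 6.81% fell. With the trend removed 3, 1 and 1 of the 36 rose and 0, 1 and 0 fell. Of the 14789 tested genes, 833, 548 and 646 rose and 213, 152 and 177 fell then.

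Among 17 partners at cell junctions, NECTIN1 (PVRL1 in the count table), an adhesion molecule of adherens junctions, fell from 225 ± 13.1 CPM to 131 ± 3.09 CPM in A333fs cells (log2 fold change -0.79, adjusted p = 6.74e-08, edgeR), and NECTIN3 (PVRL3) rose from 2.94 ± 0.865 CPM to 4.49 ± 0.131 CPM in C321fs cells (0.62, adjusted p = 0.00633). Without the trend they were -0.42 (adjusted p = 6.31e-08, edgeR) and 0.34 (0.0615), neither a call. NECTIN1 averaged 160 ± 11.2 CPM in Splice del and 183 ± 5.64 CPM in C321fs cells. NECTIN3 averaged 4.04 ± 0.514 CPM in Splice del and 3.93 ± 0.456 CPM in A333fs cells. The calls as counted were 1 of 17 higher in C321fs and 1 of 17 lower in A333fs cells, beside 4.63% and 6.81% of all tested genes. No other gene of the 17 was called against control, and CDH1, the E-cadherin, averaged 489 ± 16.8 CPM in control, against 568 ± 54.4 CPM with Splice del, 465 ± 33.2 CPM with C321fs and 592 ± 45.9 CPM with A333fs.

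Of 11 transcription factors known to act on polarity genes, 8 could be tested, and the EMT repressors SNAI2, ZEB1 and ZEB2 were at or near 0 in every line (0.137 CPM or less on average). SNAI1, the Snail repressor, was low in control (1.5 ± 0.19 CPM) and fell to 0.619 ± 0.13 CPM in A333fs cells (log2 fold change -1.27, SE 0.27, adjusted p = 0.000734, edgeR). It averaged 0.926 ± 0.333 CPM in Splice del and 1.25 ± 0.18 CPM in C321fs cells. TWIST1, another EMT factor, rose from 1.26 ± 0.0185 CPM to 2.1 ± 0.343 CPM in A333fs cells (0.73, SE 0.17, adjusted p = 0.00156, edgeR) and was higher there than in Splice del cells (1.05, adjusted p = 0.000558). It averaged 1.02 ± 0.0633 CPM in Splice del and 1.46 ± 0.207 CPM in C321fs cells. GRHL3, a grainyhead factor of epithelial cells, fell from 5.58 ± 0.484 CPM to 3.53 ± 0.58 CPM in Splice del cells (-0.66, SE 0.14, adjusted p = 0.000718, edgeR) and was higher in A333fs (7.51 ± 0.943 CPM) than in Splice del (1.09, adjusted p = 3.22e-05) and C321fs cells (0.99, adjusted p = 3.89e-05). In C321fs cells it averaged 3.78 ± 0.311 CPM, near the Splice del level. OVOL1, a factor that holds cells epithelial, fell from 7.11 ± 0.475 CPM to 4.65 ± 0.718 CPM in A333fs cells (-0.61, adjusted p = 0.000204, edgeR). It averaged 5.57 ± 0.165 CPM in Splice del and 6.88 ± 0.452 CPM in C321fs cells. As counted, 1 of the 8 was called lower in Splice del, 0 in C321fs, and 1 higher and 2 lower in A333fs cells. Of all tested genes, 6.21%, 4.63% and 5.46% were called higher and 4.53%, 2.26% and 6.81% lower. Between A333fs and C321fs 1 was called and between A333fs and Splice del 2, beside 5.55% and 3%. GRHL1, GRHL2, OVOL2 and ELF3 were called in no comparison as counted, and GRHL2 had the highest level of the 8 (233 CPM in control). Without the trend the calls of SNAI1 and TWIST1 and those of GRHL3 between mutant lines were made again, while GRHL3 in Splice del (-0.58) and OVOL1 (-0.28) were below the limits.

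Since GATA3 and the SNAI and ZEB repressors bind short motifs, promoters of the members were searched in RefSeq windows of 300 bases, 250 before and 50 after the gene start (GRCh38.p14). The table held 6 of the 10 members, LLGL1, DLG1, PARD6A, PRKCI, PRKCZ and CRB3. For each of them the window nearest the counted gene start was searched. DLG1 had 5 windows and PRKCZ 4, and their other windows were not searched. The GATA motif was searched as AGATAA and TGATAA, and with a closing G as the forms AGATAG or also TGATAG, on both strands, and the E-box of the SNAI and ZEB factors as CAGGTG on both strands. No searched window held both CAGGTG and the GATA motif in these 6-letter forms. The shorter core AGAT, which overlaps some of them and which 69.9% of all promoters held, was found in the windows of CRB3, LLGL1, PRKCI and DLG1, so that of CRB3 held it beside its E-boxes. The promoters of CRB3 and DLG1 are shown, on the strand of the gene with the matches in capitals, because they held the most E-boxes and the only match of a 6-letter GATA form among the 6 windows searched.

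CRB3: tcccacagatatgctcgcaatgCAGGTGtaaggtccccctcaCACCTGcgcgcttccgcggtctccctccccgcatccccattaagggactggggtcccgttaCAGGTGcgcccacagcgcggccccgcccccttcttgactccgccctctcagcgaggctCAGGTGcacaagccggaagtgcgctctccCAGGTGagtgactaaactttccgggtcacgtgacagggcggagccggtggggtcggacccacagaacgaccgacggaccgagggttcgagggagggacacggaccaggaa
DLG1: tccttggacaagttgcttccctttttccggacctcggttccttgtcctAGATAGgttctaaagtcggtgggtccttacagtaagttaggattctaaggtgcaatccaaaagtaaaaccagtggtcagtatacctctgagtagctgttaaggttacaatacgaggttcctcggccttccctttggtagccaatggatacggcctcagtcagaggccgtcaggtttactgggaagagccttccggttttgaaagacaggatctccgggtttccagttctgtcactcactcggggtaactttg

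The CRB3 window (chr19:6464021-6464320, plus strand) held 5 matches of CAGGTG, and those of PRKCZ and PARD6A held 3 and 1. Of the 35116 promoters given by RefSeq, 20.6% held at least 1 match and 0.094% at least 5. The DLG1 window (chr3:197299272-197299571, minus strand) held the 6-letter GATA match, as 25% of all promoters did. A match describes these letters and shows no binding.

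SCRIB was the only called member, and its pattern over the 12 libraries was most like those of FAH, C19orf47 and PEX6, each with a Pearson r of 0.992 on log2 CPM. The exons of these genes held 55.4%, 62.2% and 61.9% GC. Without the trend the most alike genes were IPO4 (r = 0.984), NOB1 (0.982) and PRMT1 (0.982), none of them among those 3.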

How the data were processed

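RNA-seq counts of the 12 libraries were used. ChIP-seq samples of the same series were not analysed here. Per the authors' methods, reads were trimmed (Trimmomatic), mapped to hg38 and counted with featureCounts of the Rsubread package, for which no version is given. Paired fragments were counted per gene, and the file headers name featureCounts 1.6.4. Per the file headers, the deposited counts are whole numbers, not normalized, and strand was not used. The header paths name STAR and the submitters' processing notes HISAT2, so the aligner is not settled.

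Genes were kept with filterByExpr by line (14789 of 26485), scaled by TMM and fitted in edgeR 4.0.16 (glmQLFit, glmQLFTest; R 4.3.3) with 1 coefficient per line. A call needed a Benjamini-Hochberg adjusted p below 0.01 over all tested genes and a fold over 1.5. log2 CPM used a prior count of 2. GC content came from hg38 exons. For each library, a trend over exon length and GC content was fitted by loess (span 0.3) on genes outside the lists and entered as offsets. A least-squares loess was run first, and the robust loess was adopted after its values for the members were seen, because least squares shifted the median of all genes. The counts of calls over all genes under least squares also differed from earlier results of these data when the change was made. The closing section gives both. Paralog ratios were compared by exact permutation. Replicate numbers did not pair the libraries (mean correlation of deviations -0.00918 over 18 pairs, 2 above 0.1). All 10 members and the polarity list genes called at least once are named. From the junction and factor lists at most 6 called genes each are named. The members and lists were chosen with earlier results of these data known, as were the motifs and the stretch of PARD6A and PARD6B. Scripts were tested on simulated data, and the limit on recovered genes was changed after a first run missed it, to cover genes that are not low in counts. The alternatives included DESeq2 1.42.0.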

Additional observations from a re-analysis of the deposited data

Results flagged for a closer look

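Differences between mutant lines, tested directly in edgeR's quasi-likelihood fit, marked 3 results. LLGL2 was lower in A333fs than in C321fs cells (log2 difference -0.2649, adjusted p = 0.00544) and than in Splice del cells (-0.2522, adjusted p = 0.0092). With the trend over GC content and exon length removed these were -0.04 and -0.02. The difference from Splice del missed an adjusted p of 0.01 with the replicate block (0.0147), with RLE size factors (0.0142) and in 8 of the 12 fits without 1 library, and that from C321fs in 4 of the 12 and when those lines were compared alone (0.0204). PARD6B was higher in A333fs than in Splice del cells (0.4766, adjusted p = 0.000279), and stayed at 0.45 (adjusted p = 0.000176) with the trend removed. The cause of these differences was not tested.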

How the results depend on the processing

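The call of SCRIB was 1 in Splice del and 1 in A333fs cells. Both became 0 with the GC and length trend removed, the GC trend alone, the least-squares trend, the block with the trend, and the test against a fold of 1.5, and that in Splice del also became 0 with upper-quartile scaling. With no minimum fold the counts were 5, 6, 9, 0, 1 and 2 over the 6 comparisons. Of those against control, the passes of PRKCZ (C321fs), PARD6B (A333fs) and PRKCI (Splice del) were each lost in 7 or more of the 12 fits without 1 library. Leaving out 1 library gave 1, 0 to 1 and 1 to 2 members called against control and 0 between mutant lines: without C321fs replicate 1 PARD6A was called in C321fs cells, and without A333fs replicate 3 LLGL1 was called in A333fs cells (fold 1.502). The count of members that differed among the 4 lines was 9. It was 2 with the robust GC and length trend, the GC trend alone and the block with the trend, 4 with the least-squares trend, which was run first and replaced by the robust fit after seeing the data, 7 with upper-quartile scaling and 5 to 9 without 1 library, at 5 without control replicate 2 and 6 without control replicate 3. The spread between lines of the PARD6B to PARD6A ratio was 0.70 as counted and 0.321 or 0.28 (least squares) with the order reversed, and of PRKCI to PRKCZ 0.60 against 0.134 or 0.107. Without 1 library the ratios spread by 0.232 to 0.259 (LLGL2 to LLGL1), 0.638 to 0.775 and 0.539 to 0.665.

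Replicate numbers are shared between groups but did not pair the libraries. With the replicate block, SCRIB was -0.63 and -0.72 in Splice del and A333fs cells, calls as before, the 4-line count stayed at 9, and no call of a member changed. An adjusted p of 0.01 was then missed by PRKCZ in C321fs (0.0121), PARD6B in A333fs (0.0119) and LLGL2 in A333fs against Splice del (0.0147).

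The log2 fold change of a member against control, and of SCRIB, LLGL2 and PARD6B between mutant lines, gave 897 values under alternatives, for 39 results. Of these 697 kept sign and side of 0.01, 106 lost and 34 gained an adjusted p below 0.01, and 60 changed sign, 53 of them with a GC trend removed. With the GC and length trend removed, the sign changed for LLGL2 0.0546, PRKCI -0.0579, PRKCZ 0.0763, CRB3 0.0447 in Splice del, LLGL2 0.0747, PARD6B -0.26, PRKCI -0.0091, PRKCZ 0.0241, CRB3 0.0471 in C321fs, LLGL2 0.0349, PARD6B -0.0586, PRKCZ 0.14 in A333fs, SCRIB 0.0443 in A333fs against C321fs and SCRIB 0.21 in A333fs against Splice del. With a GC trend alone removed it changed for LLGL2 0.0819, PRKCI -0.0498, PRKCZ 0.0955 in Splice del, LLGL2 0.0645, PARD6B -0.25, PRKCI -0.00147, PRKCZ 0.0367, CRB3 0.0423 in C321fs, LLGL2 0.0122, PARD6A 0.00578, PARD6B -0.0635, PRKCZ 0.13, CRB3 0.0225 in A333fs, LLGL2 0.0174 in Splice del against C321fs, SCRIB 0.0516 in A333fs against C321fs and SCRIB 0.13 in A333fs against Splice del. With the block and the trend removed together it changed for LLGL2 0.0547, PRKCI -0.0576, PRKCZ 0.076, CRB3 0.0465 in Splice del, LLGL2 0.0747, PARD6B -0.26, PRKCI -0.00916, PRKCZ 0.024, CRB3 0.0491 in C321fs, LLGL2 0.0347, PARD6B -0.0563, PRKCZ 0.14 in A333fs, SCRIB 0.0442 in A333fs against C321fs and SCRIB 0.21 in A333fs against Splice del. With the least-squares trend it changed for PRKCI -0.10, PRKCZ 0.00453 in Splice del, LLGL2 0.0167, PARD6B -0.29, PRKCI -0.0431 in C321fs, PARD6B -0.0821, PRKCZ 0.0869 in A333fs, SCRIB 0.0668 in A333fs against C321fs and SCRIB 0.22 in A333fs against Splice del. PARD6B in C321fs was -0.0005461 with RLE and -0.003772 with DESeq2. Without 1 library PARD6B in C321fs ran from -0.06859 to 0.07129, PARD3 in C321fs from -0.01066 to 0.1305 and LLGL2 in Splice del against C321fs from -0.05354 to 0.05214. SCRIB was -0.44, -0.29 and -0.22 against control with the least-squares trend. Why the values depend on the trend was not tested.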
